A study of Mus musculus with 8 samples.

Results

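MiR-483, miR-675 and miR-335 are 3 murine microRNAs (miRs) that are cut from transcripts of the imprinted genes Igf2, H19 and Mest. Both arms of each precursor were followed in fracture callus, which gave 6 members out of the 1079 murine miRs of the array: mmu-miR-483-5p, mmu-miR-483-3p, mmu-miR-675-5p, mmu-miR-675-3p, mmu-miR-335-5p and mmu-miR-335-3p. They were chosen by name, as every arm of these precursors on the array, and not by a cut on their signals. Earlier results of these data were known when they were chosen. The callus came from male and female CD-1 mice aged 9 to 14 weeks and was taken 7 days after an osteotomy of the femur held by an intramedullary pin and a metallic clip. In the Non-union group (P13 to P16, n = 4) the gap was 1.8 mm wide and the periosteum beside it was stripped. In the Union group (P17 to P20, n = 4) the gap was 0.25 mm wide and the periosteum was left. Gap width and stripping therefore differ together, and the groups cannot separate them. The sex and age of the single mice are not given in the sources used here.

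An imprinted gene is read from the copy of only one parent. Igf2 encodes a growth factor and is read from the paternal copy, its neighbour H19 is a long noncoding RNA read from the maternal copy, and Mest is a mesoderm gene read from the paternal copy. MiR-675 is cut from an exon of H19 and is known to hold back growth of the placenta, miR-483 lies in an intron of Igf2, and miR-335 lies in an intron of Mest and has been tied to the differentiation of mesenchymal progenitors. Each precursor folds into a hairpin whose left arm gives the 5p and whose right arm gives the 3p miR, and bases 2 to 8 of a mature miR, the seed, pair with target RNAs.

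The mature sequences are shown to give the seed and the base composition of each arm; neither was tested against the signals. They are RefSeq sequences on the build GRCm38.p6, 5′ to 3′, with the seed in capitals.
mmu-miR-483-5p: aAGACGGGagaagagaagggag
mmu-miR-483-3p: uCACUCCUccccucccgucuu
mmu-miR-675-5p: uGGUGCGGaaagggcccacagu
mmu-miR-675-3p: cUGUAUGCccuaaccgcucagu
mmu-miR-335-5p: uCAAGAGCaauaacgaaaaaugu
mmu-miR-335-3p: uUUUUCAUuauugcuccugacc

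The arms of miR-483 lie on the minus strand at chr7:142654968-142654989 (5p) and chr7:142654932-142654952 (3p), within Igf2. Those of miR-675 lie on the minus strand at chr7:142577112-142577133 (5p) and chr7:142577078-142577099 (3p), within H19. The mature sequences of both loci are 77.8 kb apart. The arms of miR-335 lie on the plus strand at chr6:30741314-30741336 (5p) and chr6:30741354-30741375 (3p), within Mest. The 6 seeds differ from each other. Of the 1079 murine miRs of the array, 840 had a mature sequence of the same name in the table used, and none of these shared a seed with a member.

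The precursors show how the arms face each other, with the mature arms in capitals.
Mir483: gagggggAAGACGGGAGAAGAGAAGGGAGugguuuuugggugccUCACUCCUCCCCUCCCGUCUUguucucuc
Mir675: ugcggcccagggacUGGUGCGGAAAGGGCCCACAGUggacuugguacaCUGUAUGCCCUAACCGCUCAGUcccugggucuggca
Mir335: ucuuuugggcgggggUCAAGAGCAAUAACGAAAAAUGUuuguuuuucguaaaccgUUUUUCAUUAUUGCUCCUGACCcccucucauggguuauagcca
The arms of miR-483 were at opposite ends in base composition. Purines (A and G) made up 95.5% of miR-483-5p, the highest share among the 244 tested miRs with a sequence, whose median was 50%. In miR-483-3p, the share was 9.52%, and only 1 of the 244 miRs had a lower one. The G and C content of miR-335-5p was 30.4% and that of miR-335-3p 36.4%, against a median of 47.8% for the tested miRs.

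All 8 arrays lay on 1 slide, and the scanner software called 324 to 366 miRs detected on the Non-union arrays and 361 to 391 on the Union arrays. Each row of the slide held 1 group, so row and group cannot be told apart. The negative control spots had a mean net signal of 51.2 to 55.0 on the Non-union and 46.9 to 47.9 on the Union arrays, and the part of this shift in the results was not tested. The tests covered the 310 miRs that every array detected. As a check of the tissue, all 4 cartilage miRs (5p and 3p of miR-140 and of miR-455) and all 5 mesenchymal miRs (the miR-199 and miR-214 families) were among them. The red blood cell, myeloid and skeletal muscle markers were found as well, so that the callus RNA is a mixture. In such a mixture, fewer cells of a type and less of a miR per cell cannot be told apart.

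The members behaved in 3 ways. MiR-335-5p lay higher in the Non-union callus, 2.42-fold on average, and its dim 3p arm was higher on average as well. MiR-483-5p was 2.04-fold lower on average, but this came from 2 very high Union arrays, while miR-483-3p showed no such displacement. From H19, miR-675-3p was detected everywhere and miR-675-5p nowhere. With limma over the 310 miRs, 1 of the 4 testable members passed an unadjusted p of 0.05 in the direction of Non-union, where the share over all tested miRs was 9.68%. None passed in the opposite direction, where the share was 4.19%. By a fold of 2 or more, 1 of 4 was higher (7.10% of all tested miRs) and 1 of 4 was lower (1.29%). After Benjamini-Hochberg adjustment, no member was below 0.05, with limma or without its moderation of the variance, against 0.323% of all tested miRs with limma. At an unadjusted p of 0.05, 1 member, miR-335-5p, also passed without that moderation, beside 33 of the 310 tested miRs in either direction. With 4 members, such shares say little beyond the values themselves.

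**Figure D1:**
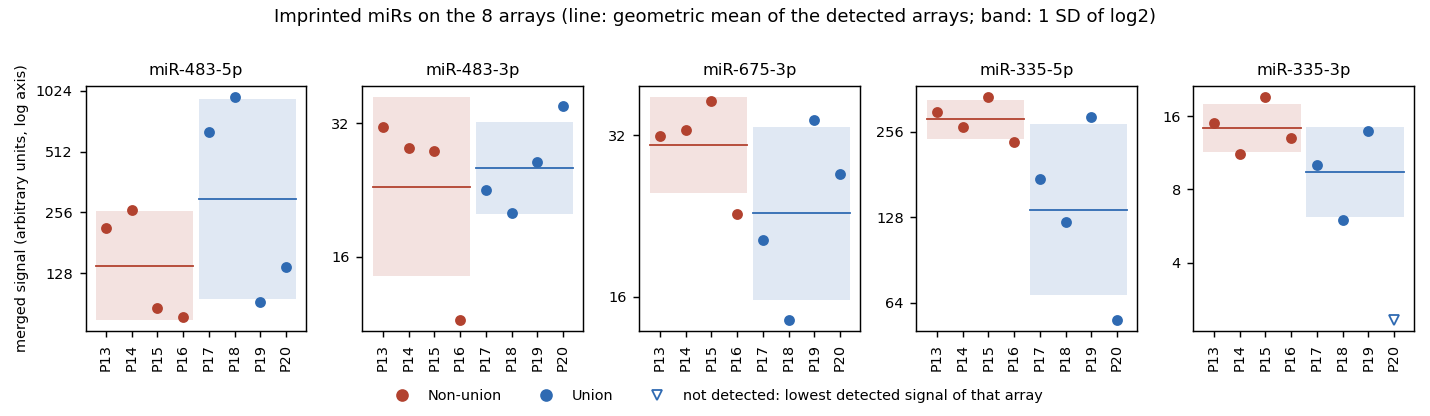
Merged signal (y axis, arbitrary units, log scale) of the 5 detected members on each array (x axis); points are arrays, lines the geometric mean of the detected arrays of a group and bands 1 SD of the log2 signals. The 2 highest signals of miR-483-5p are those of P17 and P18, and the miR-335-5p signal of P19 (287.8) lies among those of the Non-union arrays; the open triangle marks P20, where miR-335-3p was not detected, at the lowest signal detected there.

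MiR-483-5p gave merged signals of 213.6, 262.6, 86.2 and 77.6 on P13 to P16 and of 642.1, 956.4, 92.4 and 137.7 on P17 to P20. The Union arrays P17 and P18 were thus above all Non-union arrays, and P19 and P20 fell within the Non-union range. On the normalized log2 scale the means were 7.17 ± 0.71 (SD, n = 4) in Non-union and 8.19 ± 1.56 (SD, n = 4) in Union. The difference of -1.03 (SE 0.71, 95% interval -2.64 to 0.59) was smaller than the spread between replicates and did not pass the test (limma adjusted p = 0.387; two-sided exact permutation test p = 0.286). Its Union SD was the 10th largest of the 310 tested miRs, whose median was 0.49. That range was wider than the error within an array. All 40 spots were well above background on every array, none was saturated, and the error of the merged signal given by the scanner software was 5.15% to 5.54%. The 4 probes for miR-483-5p gave differences of -1.07 to -1.13 before normalization.

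For miR-483-3p, the arm known from Wilms' tumours, the merged signals were 31.4, 28.1, 27.7 and 11.5 in Non-union and 22.6, 20.03, 26.2 and 34.9 in Union. P16 was the lowest and P20 the highest, and the groups overlapped. The difference of 0.11 on the normalized log2 scale (SE 0.32, 95% interval -0.62 to 0.83) did not pass the test (limma adjusted p = 0.835; two-sided exact permutation test p = 0.857). Its direction was not settled, since it was -0.14 without normalization and -0.01 with quantile normalization over the detected miRs alone. Only 1 of its 2 probes had all spots well above background. The other probe was added to the merged signal on every array but P16, where its signal of 3.47 was left out.

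The question whether the arms of a precursor move together was put to the 5p minus 3p difference of each array, for the 43 precursors with both arms detected everywhere. For miR-483 it was 2.78, 3.12, 1.62 and 2.60 in Non-union and 5.08, 5.72, 1.86 and 1.99 in Union. P17 and P18 stood apart again, because 5p was high there and 3p was not. The contrast between the groups was -1.13 (SE 0.95, 95% interval -3.35 to 1.09; limma adjusted p = 0.554 over 43 precursors; two-sided exact permutation test p = 0.371). At an unadjusted p of 0.05, the test passed 11.6% of the precursors and not miR-483. The SD of the 5p minus 3p difference over all 8 arrays was 1.52 for miR-483, the 4th largest of 43, against a median of 0.33.

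**Figure D2:**
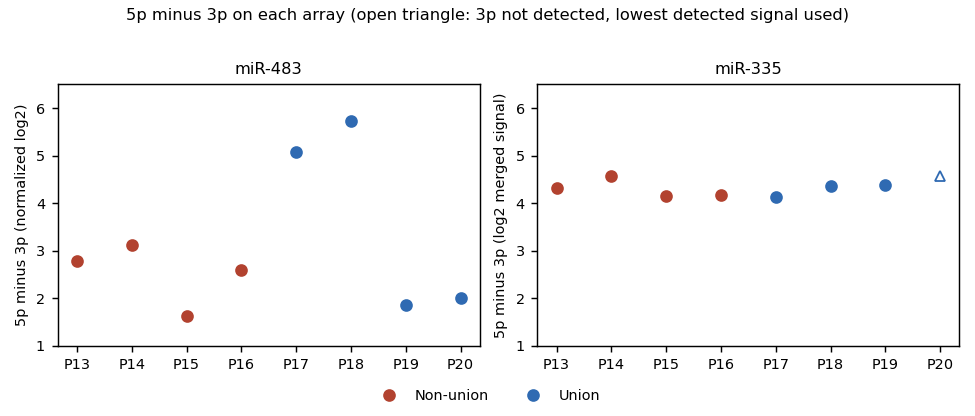
Difference between the 5p and the 3p arm on each array (x axis) for miR-483 (normalized log2) and miR-335 (log2 merged signal), on y axes of equal range; the open triangle marks the array on which miR-335-3p was not detected and was placed at the lowest signal detected there. For miR-483, P17 and P18 lie at 5.08 and 5.72 and the other 6 arrays between 1.62 and 3.12. For miR-335, the 7 arrays that detected both arms lie between 4.12 and 4.58. The panels differ in scale, so their spreads cannot be set against each other.

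From the H19 locus, miR-675-5p was not detected on any of the 8 arrays, and the mean signals of its 4 probes were below 0 after background subtraction on every array, so no fold is given. MiR-675-3p was detected on all arrays, with merged signals of 32.0, 32.8, 37.0 and 22.8 in Non-union and 20.4, 14.5, 34.2 and 27.1 in Union. P17 and P18 gave the 2 lowest signals, and P19 and P20 lay within the Non-union range. The normalized log2 means were 5.07 ± 0.25 (SD, n = 4) and 4.38 ± 0.79 (SD, n = 4). The difference of 0.69 (SE 0.37, 95% interval -0.14 to 1.53), a fold of 1.62, did not pass the test (limma adjusted p = 0.378; two-sided exact permutation test p = 0.200). One of its 4 probes was below 0 on every array, and the other 3 gave differences of 0.34 to 0.56 before normalization. On P18 the merged signal left out the dimmest of these 3 (1.93), which the other arrays included.

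MiR-335-5p, the arm linked to mesenchymal progenitors, gave merged signals of 300.8, 267.0, 339.8 and 236.0 in Non-union and 175.2, 122.7, 287.8 and 55.5 in Union. All Non-union arrays were above 3 of the 4 Union arrays, and P19 lay among them. The normalized log2 means were 8.28 ± 0.29 (SD, n = 4) and 7.01 ± 0.92 (SD, n = 4). The difference was 1.27 (SE 0.42, 95% interval 0.31 to 2.23) with an unadjusted limma p of 0.0149, the 16th smallest of 310. After adjustment it did not pass (limma adjusted p = 0.288), and the two-sided exact permutation test gave p = 0.0857, where 0.0286 is the smallest value that 4 against 4 arrays allow. Its 2 probes gave differences of 1.02 and 1.32 before normalization. The 1.32 came from the dimmer probe, which had 0 of 20 spots well above background on P20. The merged signal of P20 left out this probe (2.35), which the other arrays included. Without P20, the array with the lowest signal, the difference was 0.93 (limma adjusted p = 0.286).

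MiR-335-3p was dimmer and was detected on 7 arrays, and the test of 310 miRs therefore left it out. The study of these arrays, with its own detection rule, did test it and lists it as significantly different. MiR-335-5p and miR-483-5p are also among its relevant miRs, by their fold and not by their p. The merged signals were 14.96, 11.2, 19.2 and 13.1 in Non-union and 10.07, 5.98 and 13.9 on P17, P18 and P19, and it was not detected on P20. P20 is also the array on which miR-335-5p was lowest. With P20 placed at its own array's lowest detected signal (2.32), the difference of the log2 merged signals was 1.11 (two-sided exact permutation test p = 0.0857). On the normalized scale, with P20 left out, it was 1.34 (SE 0.56, limma adjusted p = 0.286). The signal was near background: 3 of its 4 probes had all spots well above background on no array, and the remaining probe had them on 5 arrays. On P20, 0 of 40 spots were well above background. Weak probes were left out of the merged signal unevenly. On P18 those at 0.96 and 1.60 were left out, whereas on P15 all 4 were included. The remaining probe had mean signals of 26.7 to 36.8 in Non-union and 11.7 to 30.7 in Union. The size of the difference depended on the handling of the dim signal and of the background, from 0.17 with normexp correction to 2.78 with the undetected signal taken as it stands. The normexp correction added an offset of 50, which draws log2 differences of dim signals towards 0.

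On the scale of the log2 merged signals, the 5p minus 3p difference of miR-335 was 4.33, 4.58, 4.14 and 4.18 in Non-union and 4.12, 4.36 and 4.37 on P17, P18 and P19. On the normalized log2 scale used for miR-483, the arms lay farthest apart on P18. There 5p was 6.73 and 3p 1.36, beside 7.03 and 2.67 on P17. On P20, 3p was not detected, so no value is known there. Placing 3p at the lowest signal detected on P20 (2.32) gave 4.58. That placement is no upper limit for 3p, whose 4 probes still gave signals of 0.19 to 2.21 each on P20. The contrast was 0.022 without P20 and -0.05 with P20 so placed (p = 0.714 in the two-sided exact permutation test). Other handling of P20 and of the background gave -1.50 to 0.81, so that the contrast is not settled. Whether miR-335 differs from miR-483 in this respect was not tested.

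The members' differences were larger without the Union array P19. On the other 7 arrays, 85 of the 310 tested miRs passed an unadjusted p of 0.05 as higher in Non-union (27.4%) and 30 as lower (9.68%), so that more calls were made throughout. MiR-335-5p was then higher by 1.69 (SE 0.29, limma adjusted p = 0.0311) and was 1 of the 9 miRs that passed after adjustment as higher in Non-union (2.90% of all tested miRs). MiR-675-3p gave 0.99 (limma adjusted p = 0.0808) and miR-483-5p gave -1.56 (limma adjusted p = 0.127). MiR-483-3p remained near 0, at 0.18 (limma adjusted p = 0.733). Nothing in the labels sets P19 apart from the Union group, and a group without it is a description only. The cluster analysis in the study of these arrays had already placed P19, and P20 as well, near the Non-union samples.

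**Figure D3:**
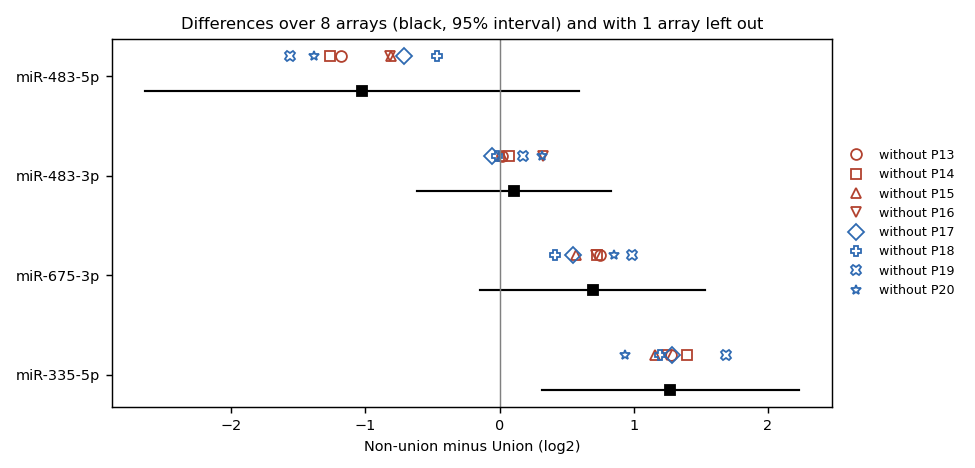
Non-union minus Union difference (x axis, log2) of the 4 tested members over all 8 arrays, as black squares with 95% intervals, and with each array left out in turn, as open symbols. The difference of miR-335-5p stays between 0.93 and 1.69, that of miR-675-3p between 0.41 and 0.99 and that of miR-483-5p between -1.56 and -0.47, while that of miR-483-3p crosses 0.

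Relations between members across the arrays went both ways. MiR-483-5p and miR-675-3p, from neighbouring genes, ran in opposite directions over the 8 arrays (Pearson r = -0.94, Spearman rho = -0.79). Without P17 and P18, the 2 arrays farthest from the median of miR-483-5p, r was -0.57. The opposition was not particular to the neighbouring genes. Against miR-335-3p, from another chromosome, miR-483-5p gave r = -0.95 (rho = -0.96) over 7 arrays, and -0.79 without P17 and P18. Against miR-335-5p it gave r = -0.56 (rho = -0.74), and -0.26 without them. The arms of miR-483 gave r = -0.47 (rho = -0.26), and without the same 2 arrays r was 0.36, so that this relation rested on them. The arms of miR-335 gave r = 0.96 (rho = 0.99) over the 7 arrays with both, and 0.96 without P17 and P18. MiR-675-3p ran in the same direction as both of them, with r = 0.64 (rho = 0.78) to miR-335-5p and r = 0.92 (rho = 0.71) to miR-335-3p, and without P17 and P18 r was 0.58 and 0.43. These values describe arrays that share a normalization, and no test was made of them.

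Among the tested miRs, those most like miR-483-5p were mmu-miR-1982-5p (r = 0.997, rho = 1), mmu-miR-680 (r = 0.996, rho = 0.96) and mmu-miR-1897-5p (r = 0.996, rho = 0.99). All 3 were highest on P18, followed by P17, and their r remained at 0.991 to 0.994 without those arrays. The sequences of the first 2 are given because they can be set beside miR-483-5p above (RefSeq, GRCm38.p6, seed in capitals).
mmu-miR-1982-5p: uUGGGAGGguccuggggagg
mmu-miR-680: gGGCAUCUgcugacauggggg
G made up 60% of miR-1982-5p, 47.6% of miR-680 and 50% of miR-483-5p. Purines made up 70% of miR-1982-5p and 61.9% of miR-680, beside 95.5% of miR-483-5p. Whether base composition relates to the signals was not tested, and no G share of all tested miRs was set beside these. The 3 seeds differ from each other. MiR-1897-5p had no entry of that name. Most opposite was mmu-miR-450a-5p (r = -0.98).

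MiR-335-5p was most like mmu-miR-382-3p (r = 0.98, rho = 0.97), mmu-miR-677-3p (r = 0.97, rho = 0.91) and mmu-miR-100-5p (r = 0.96, rho = 0.86). The first of these belongs to the imprinted Dlk1-Dio3 cluster. Its sequence is printed for comparison of the seed with that of miR-335-5p.
mmu-miR-382-3p: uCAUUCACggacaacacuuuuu
Over the 7 arrays on which it was detected, miR-335-3p was most like mmu-miR-31-3p (r = 0.99, rho = 0.96), mmu-miR-345-5p (r = 0.99, rho = 0.99) and mmu-miR-98-5p (r = 0.99, rho = 1). MiR-675-3p was most like mmu-miR-362-5p (r = 0.95, rho = 0.95), mmu-miR-450a-5p (r = 0.93, rho = 0.67) and mmu-miR-28-5p (r = 0.93, rho = 0.62). Without P17 and P18 the last 2 fell to 0.35 and 0.21. MiR-483-3p had no neighbour as close, with mmu-miR-192-5p at r = 0.87 (rho = 0.83), mmu-miR-10a-5p at 0.84 (rho = 0.79) and the muscle miR mmu-miR-206-3p at 0.84 (rho = 0.73).

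**Figure D4:**
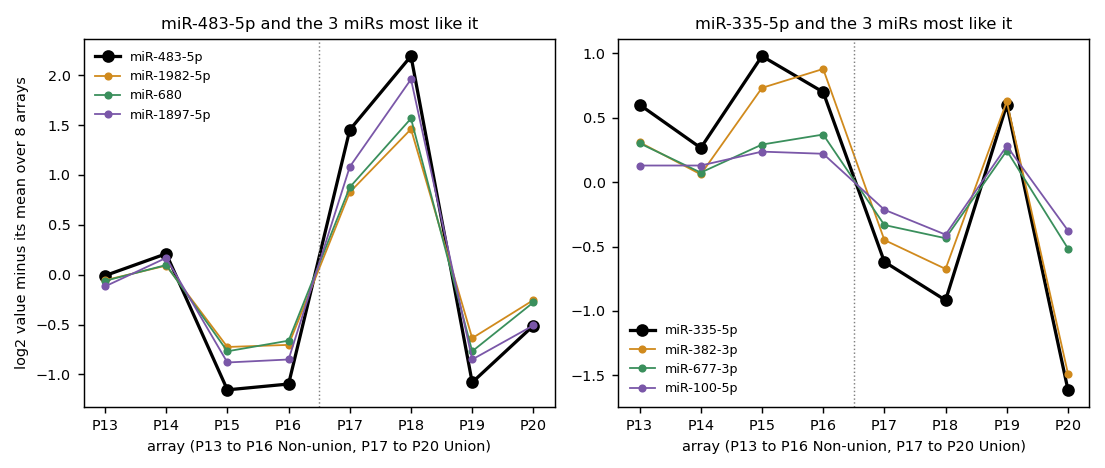
Normalized log2 values minus their mean over the 8 arrays (y axis) by array (x axis), for miR-483-5p (left) and miR-335-5p (right) with the 3 tested miRs most like each; the dotted line parts Non-union from Union. MiR-483-5p and its 3 neighbours peak on P17 and P18, and miR-335-5p and its neighbours are high on the Non-union arrays and P19 and low on P17, P18 and P20.

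Some other imprinted miRs were set beside the members, namely every arm of the maternally read Dlk1-Dio3 cluster and of miR-296 and miR-298 of the Gnas locus. Other imprinted loci, such as the Sfmbt2 cluster, were not included, so the counts do not describe imprinted miRs as a class. The study of these arrays lists miR-669n, miR-669l-5p and miR-466i-5p of the Sfmbt2 cluster as lower in Non-union. Of the 112 miRs of the Dlk1-Dio3 and Gnas lists, 39 were tested and 66 were detected on no array. With limma, 3 of the 39 passed an unadjusted p of 0.05 as higher in Non-union and 0 as lower, and 0 passed after adjustment with limma. Over all tested miRs 9.68% passed as higher, so the count of 3 in 39 was no larger than that background. Their differences had a median of 0.50, with 35 of 39 above 0, beside a median of 0.15 and 184 of 310 above 0 for all tested miRs. The 3 that passed unadjusted were mmu-miR-543-3p, mmu-miR-299-3p and mmu-miR-382-3p. Their differences were 0.99 (SE 0.37), 1.26 (SE 0.48) and 0.99 (SE 0.42), and their limma adjusted p-values were 0.313, 0.313 and 0.327. Each of these was lower on P17, P18 and P20 than on any Non-union array and lay within the Non-union range on P19, the order also seen for miR-335-5p. The 3 lowest by p were mmu-miR-134-5p at -0.97 (SE 0.58), mmu-miR-3072-5p at -0.35 (SE 0.24) and mmu-miR-370-3p at -0.46 (SE 0.35), with limma adjusted p-values of 0.378, 0.387 and 0.407. All 3 were highest on P18, followed by P17, as miR-483-5p was.

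Of the cell type lists, those of mesenchymal cells and cartilage had called miRs higher in Non-union. The mean normalized log2 value of the 5 mesenchymal miRs was 9.86, 9.36, 10.02 and 10.37 in Non-union and 8.79, 8.79, 9.81 and 8.85 in Union, so that P19 lay within the Non-union range, as it did for miR-335-5p. All 5 passed an unadjusted limma p of 0.05 as higher in Non-union (9.68% of all tested miRs did), with a median difference of 0.75, and 0 passed after adjustment. For the 4 cartilage miRs the values were 7.14, 6.47, 7.74 and 8.69 in Non-union and 5.67, 5.67, 6.93 and 6.20 in Union. All 4 passed an unadjusted limma p of 0.05 as higher, beside the same 9.68%, with a median difference of 1.43, and 0 passed after adjustment. The lists were chosen with earlier results of these data known. The study of these arrays lists all 4 cartilage miRs and some of the mesenchymal ones among its relevant miRs. These counts are therefore a description and no independent evidence. The summed merged signal of the mesenchymal list was 9704 to 12885 in Non-union and 6262 to 11137 in Union, and that of the cartilage list 934.2 to 3521 and 483.6 to 996.4. None of their miRs was at 0. The myeloid list was highest on P20 (12.0, beside 9.53 to 10.2 on the other 7 arrays), where both arms of miR-335 were lowest, and its summed merged signal was 3534 to 4985 in Non-union and 5375 to 20398 in Union. Of its 4 miRs, 1 was detected on no array, and of the 3 tested, 1 passed an unadjusted limma p of 0.05 as lower (4.19% of all tested miRs did) and 0 as higher. Of the tested skeletal muscle and red blood cell miRs, 0 of 4 and 0 of 3 passed it in either direction, and 0 passed after adjustment with limma. The summed signal of the 6 skeletal muscle miRs was 14855 to 62359 and 36945 to 95817, and that of the 3 red blood cell miRs of the array was 2960 to 9469 and 3050 to 16676. The liver miR mmu-miR-122-5p was not among the tested miRs and reached a merged signal of 62.0 in Non-union and 8.64 in Union at most. The part of these cell types in the members' differences was not tested.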

How the data were processed

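Callus RNA of 8 mice was hybridized to 1-colour microarrays for murine miRs, with 40 spots for each miR. The deposited intensity values and 0 or 1 detection calls came from Agilent Feature Extraction 10.10.1.1, per the file headers, which subtracts the background and merges the spots of a miR; an undetected miR is given as 0.1. For the members, a merged signal was the sum of some or all of the probe signals, and weak probes were left out on some arrays. The deposited value table holds log2 values that the authors quantile normalized, and it was used as an alternative. The arrays' design names the build mm9, whereas sequences and positions were taken by name from RefSeq tables (GRCm38.p6).

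The log2 of the merged signals was quantile normalized over the 1079 miRs (limma 3.58.1, R 4.3.3), and limma was run on the 310 miRs that every array detected, with Benjamini-Hochberg adjustment over all of them. Differences are Non-union minus Union. Single values were also tested with a two-sided exact permutation test over the 70 arrangements of the arrays, computed with Python 3.11.15. Per the methods, the calluses of 4 mice per group gave RNA, so the spread between arrays includes that between mice. MiR-335-3p, undetected on P20, was compared on log2 merged signals, with P20 at its lowest detected signal. On simulated data for these 310 miRs, changes of 1, 2 and 3 (log2) were recovered at an adjusted p below 0.05 in 33%, 89% and 96.5% of cases, and 5.32% of the unchanged miRs had an unadjusted p below 0.05. The simulation shuffled the values of each miR separately and planted only rises. It therefore lacks the patterns that many miRs share across these arrays, and its rates may not hold for them.

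The members and lists were chosen with earlier results of these data known. The text names the members, for each the 3 tested miRs with the highest r, and the 3 higher and 3 lower other imprinted miRs with the smallest p; mmu-miR-450a-5p, as most opposite to miR-483-5p, and the relations between members were added after their values were seen. Alternatives covered normalization, background correction (normexp with an offset of 50), filters, the value table, the Student statistic and leaving out each array.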

Additional observations from a re-analysis of the deposited data

Results flagged for a closer look

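In 4 of 25 sets of 4 arrays, 1 array lay apart from the other 3 by Dixon's criterion, which chance meets in about 1 of 20 sets. MiR-483-3p was low on P16 of the Non-union group, at 3.99 on the normalized log2 scale beside 4.77 to 4.91 on the others. Its merged signal on P16 left out a weak probe that the others included. MiR-675-3p was high on P15 of the Non-union group, at 5.45 beside 4.91 to 4.998. The mean of the mesenchymal list was high on P19 of the Union group, at 9.81 beside 8.79 to 8.85. The mean of the myeloid list was high on P20 of the Union group, at 12.0 beside 10.01 to 10.16.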

How the results depend on the processing

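MiR-335-5p was higher in Non-union at an unadjusted p below 0.05 under all 19 alternatives, between 0.93 (without P20) and 1.69 (without P19). The p came from limma, except under the Student statistic, which leaves out its moderation. Leaving out each array gave -1.56 to -0.47 for miR-483-5p and 0.41 to 0.99 for miR-675-3p, which passed that threshold only without P19. MiR-483-3p ranged from -0.054 to 0.32 and turned to -0.015 with quantile normalization over detected miRs and to -0.14 without normalization. The miR-483 arm contrast ranged from -1.74 to -0.45 and never passed. The miR-335-3p difference depended on the handling of undetected signals and of the background. It was 2.004 on the quantile normalized scale with P20 at its lowest detected value and 2.78 with the undetected value itself. With normexp and its offset of 50 it was 0.17, and leaving out each array gave 0.60 to 1.46. The miR-335 arm contrast was -0.73, -1.50 and 0.81 under these 3 settings, -0.41 on the normalized scale without P20, 0.14 with processed spot signals, 0.52 in the authors' table and -0.14 to 0.022 on leaving out each array. The settings for P20 were chosen after seeing the data. The number of miRs at an unadjusted p below 0.05 was 43, and 18 (without P17), 20 (without P15), 21 (without P18), 28 (without P16) and 115 (without P19) on leaving out 1 array. The median of the red blood cell list ranged from -0.63 to 0.22 on leaving out each array, the latter without P17. No paired analysis was possible because the groups share no specimen numbers. The number of arrays limits the precision.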
